A study of Mus musculus with 6 samples.

Results

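The mitochondrial chaperones and proteases described here are 10 nuclear genes, picked by symbol from the 54532 genes of the table. The choice was made with earlier results of these data known, so counts over the 10 genes are descriptions. The 10 are the chaperones Hspa9, Hspd1 and Hspe1 and the proteases or protease subunits Lonp1, Clpp, Clpx, Yme1l1, Afg3l2, Oma1 and Htra2. All 10 were found, and all 10 passed the filter on low values. Poly-A RNA was sequenced from primary bone-marrow-derived macrophages (BMDMs) of C57BL/6 mice, grown with medium conditioned by L929 cells. Of the 6 libraries, 2 came from untreated cells (Untr), 2 from cells given 100 ng/ml lipopolysaccharide (LPS), a bacterial cell wall component, for 2 h (LPS), and 2 from cells kept for 6 h in 5 mM metformin, a biguanide drug, before the same LPS stimulus (Met + LPS). No group received metformin alone, so every effect of metformin here was measured in LPS-stimulated cells. Per the study's methods the cells were plated as duplicates, and which mice they came from is not given in the sources used here, so p-values measure only the spread between these duplicates.

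Most mitochondrial proteins are made in the cytosol and enter the organelle unfolded. Hspa9 (mortalin), the Hsp70-type chaperone of the matrix, pulls them through the inner membrane. The chaperonin ring of Hspd1 and its lid Hspe1 then fold part of them in a closed chamber. Proteases remove what stays misfolded. Lonp1 and the Clpp barrel, fed by the unfoldase Clpx, act in the matrix. Afg3l2, which assembles alone or with Spg7, faces the matrix from the inner membrane, and Yme1l1 faces the intermembrane space. Oma1 is an inner membrane protease that is activated by stress and cuts Opa1 and Dele1, and Htra2 is a serine protease of the intermembrane space that can bind inhibitors of apoptosis when it is released. Raised mRNA of such chaperones and proteases is the classic readout of the mitochondrial unfolded protein response.

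Cells given metformin before LPS differed from cells given LPS alone in 5 of the 10 genes, all of them higher, where 14.5% of all 12755 genes tested were higher and 18% lower. The genes that were higher were the 3 chaperones and the proteases Lonp1 and Afg3l2, from 1.30-fold (Hspe1) to 3.44-fold (Hspa9). In such bulk samples, a change in the number of cells of a type and a change in RNA per cell cannot be told apart. Clpp, Clpx, Yme1l1, Oma1 and Htra2 did not pass the test in that comparison.

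Some promoter sequence is shown first, because the pair of chaperonin genes that rose by different amounts lies head to head around one promoter. Hspd1 is at chr1:55077835-55088243 (minus strand) and Hspe1 at chr1:55088132-55091307 (plus strand). RefSeq's promoter table (GRCm38.p6) lists 2 starts for Hspd1, and the more distant lies 216 bases from the Hspe1 start. Between that start and the Hspe1 start lies an array of 18 bases with 3 overlapping matches to the heat shock element. This element (GAANNTTC or TTCNNGAA, read on both strands) is the kind of site that heat shock factors bind. The other listed Hspd1 start lies inside Hspe1, and GENCODE also annotates a longer Hspd1 transcript whose first exon covers the array. The same bases, chr1:55088053-55088082 in GRCm38, are printed for each strand with 6 bases on either side of the array, and capitals mark the array.
Hspe1 (plus strand, bases -95 to -66 before its start): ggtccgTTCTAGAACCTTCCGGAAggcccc
Hspd1 (minus strand, bases -150 to -121 before its start): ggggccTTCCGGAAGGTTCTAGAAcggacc

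Lonp1 and Clpx both serve matrix proteolysis, and the 100 bases before the start of each are shown. Lonp1 is on chr17:56614297-56626887 (minus strand) and Clpx on chr9:65294260-65330658 (plus strand). The stretches are chr17:56626904-56627003 and chr9:65294160-65294259 in GRCm38, each written 5′ to 3′ on the gene's own strand. Capitals mark an E-box (CACGTG) in Lonp1 and an NRF1 core (GCATGCGC) in Clpx.
Lonp1: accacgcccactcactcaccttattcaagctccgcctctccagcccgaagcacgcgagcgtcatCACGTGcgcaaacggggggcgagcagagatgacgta
Clpx: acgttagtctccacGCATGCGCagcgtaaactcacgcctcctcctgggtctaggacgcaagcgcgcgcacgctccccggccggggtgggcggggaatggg

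RefSeq's table, which spans 250 bases before to 50 after each start, held 7 of the 10 genes, and Hspa9, Afg3l2 and Htra2 had no entry. Heat shock elements were found for 3 of the 7, Hspd1, Hspe1 and Clpp (TTCCGGAA, 33 bases after its start), and for 17% of all 27025 genes. Those of Hspd1 and Hspe1 are the same bases. An E-box occurred in Lonp1, 36 bases before its start, and at the other listed start of Hspd1, as for 8.09% of all genes. The NRF1 core occurred only in Clpx among the 7 and for 3.05% of all genes. CCAAT boxes (CCAAT, both strands) were present in Hspd1, Clpx and Yme1l1, and for 41.1% of all genes. None of the 7 held the core of the composite site for ATF4 and CHOP (TGATGNAA), which 4.51% of all genes hold. These matches describe letters in the window. Whether any of them bears on the changes in level was not tested.

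The libraries were alike in depth. Whole reads recovered from the steps of TPM (transcripts counted per fixed total in a library, allowing for length) summed to between 25457016 and 30762755 per library, and each of the 10 genes had 216 reads or more in every library (216 for Clpp to 32025 for Hspa9). The first principal component of all genes tested (85.2% of the variance) separated Untr from the other groups, and the second (10.1%) separated LPS from Met + LPS. Macrophage markers (7 of 7 present) summed to 34526 to 45600 TPM in the Untr and LPS libraries and 28763 to 28884 TPM in Met + LPS. The 8 neutrophil markers summed to 26.7 to 32.8 TPM in Untr and LPS and 43.6 to 45.9 in Met + LPS, with 3 of them under 1 TPM throughout. B cell, T cell, dendritic and stromal markers each summed to at most 3.18 TPM in any library, and mast cell and basophil markers to 20.6 to 24.4 TPM outside the LPS group and 8.18 to 8.27 within it. All 4 T cell markers were under 1 TPM throughout, and Cd3g and the mast cell marker Fcer1a were listed at 0 in every library. Their part in the results was not tested.

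Values below are TPM, which are scaled for transcript length and so allow levels of different genes to be compared. Differences between groups are log2 fold changes of TPM + 1 from limma, with p-values adjusted over all 12755 genes tested, and a gene was called at an adjusted p under 0.01. TPM measures a share of each library, and the median gene tested stood at -0.48 on the log2 scale in LPS relative to Untr and at -0.48 in Met + LPS relative to Untr. After rescaling each library by its median ratio over genes those medians were 0.01 and 0.03. In the comparison of Met + LPS with LPS the median was -0.03 as deposited and -0.02 rescaled. Changes against untreated cells are therefore given on both scales.

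**Figure D1:**
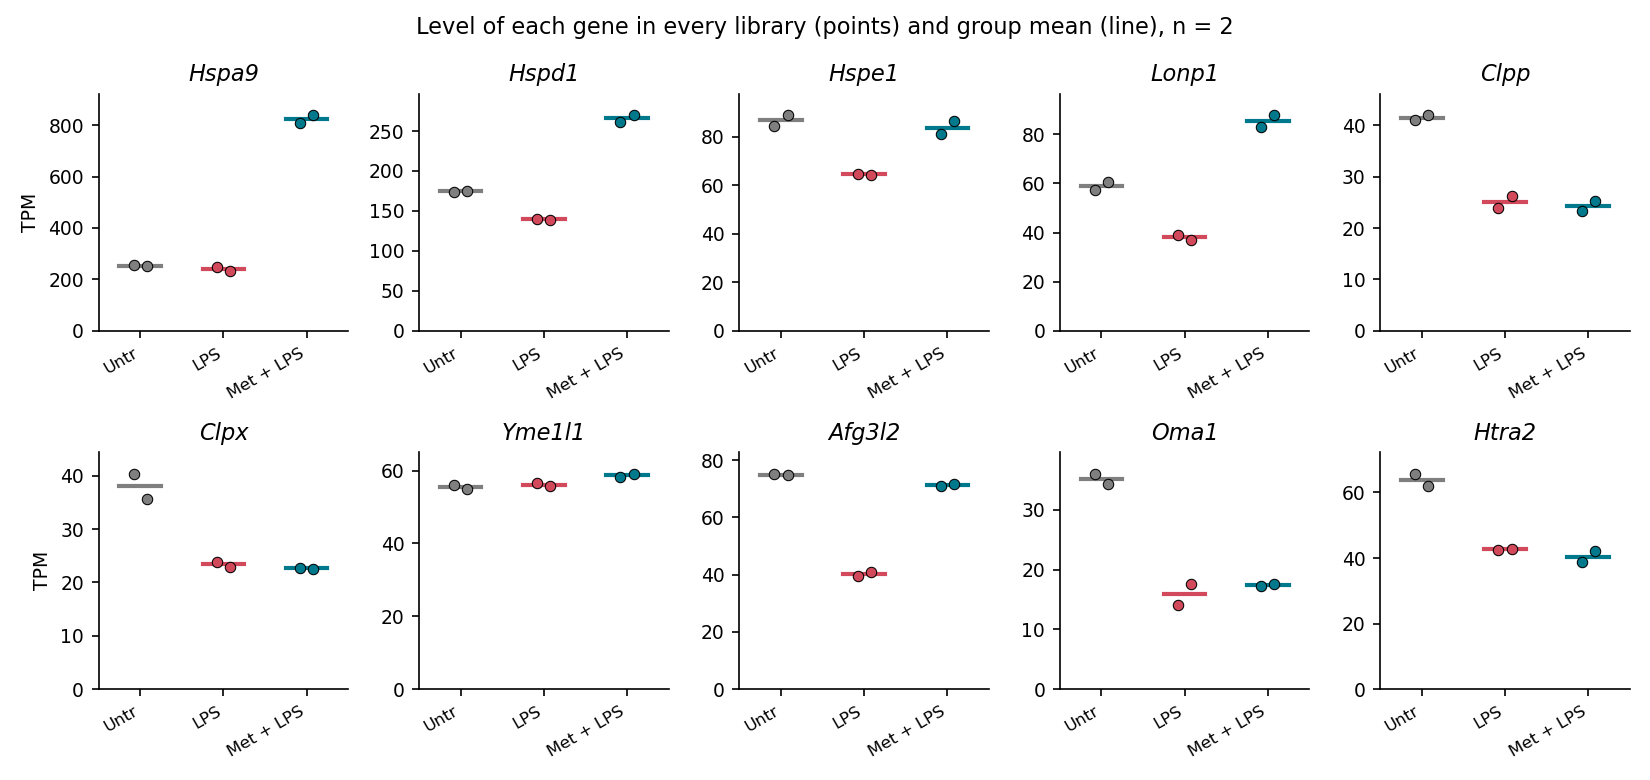
TPM of each of the 10 genes in every library; points are libraries, lines are means of 2, and each vertical axis starts at 0. The Met + LPS points of Hspa9 (809 and 840) sit far above those of the other groups, while the Met + LPS and LPS points of Clpp, Clpx, Oma1 and Htra2 lie close together below Untr.

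The chaperones come first. Hspa9 (chr18:34937423-34954351) had the highest TPM of the 10 in every library, with 256 and 251.1 TPM in Untr, 247 and 232 in LPS, and 809 and 840 in Met + LPS. The Untr and LPS libraries were close to each other, and both Met + LPS libraries were more than 3-fold above them. Met + LPS exceeded LPS 3.44-fold, a log2 fold change of 1.78 ± 0.04 (SE; limma, adjusted p = 4.4e-06), which stood at the 99.6th percentile of all genes tested. LPS against Untr gave a log2 fold change of -0.08 (95% interval -0.18 to 0.02, limma adjusted p = 0.0999), which was 0.45 after rescaling (adjusted p = 7.7e-05).

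Hspd1, the ring of the chaperonin, had 174 and 175 TPM in Untr, 140 and 139 in LPS, and 262 and 270 in Met + LPS. The 3 groups did not overlap, and the order was the same in both libraries of each: LPS lowest, Met + LPS highest. Met + LPS exceeded LPS 1.91-fold (log2 fold change 0.93 ± 0.03, limma adjusted p = 9.6e-06). The lower level in LPS than in Untr (log2 fold change -0.32, adjusted p = 8.5e-05) turned to a higher one after rescaling (0.21, adjusted p = 0.0011).

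Hspe1, the lid that closes the ring, had 84.5 and 88.9 TPM in Untr, 64.8 and 64.1 in LPS, and 81.0 and 86.5 in Met + LPS. In deposited TPM the Met + LPS libraries overlapped with Untr and the LPS libraries lay below both, whereas after rescaling Met + LPS was above Untr (log2 fold change 0.49, limma adjusted p = 8.0e-05). The rise over LPS was 1.30-fold (log2 fold change 0.37 ± 0.05, limma adjusted p = 9.6e-04). LPS against Untr was -0.42 as deposited (adjusted p = 1.5e-04) and 0.11 after rescaling (adjusted p = 0.078).

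The ratio of ring to lid therefore moved, and as a ratio within a library it does not depend on the scaling. Hspd1 had 2.06 and 1.97 times the TPM of Hspe1 in Untr, 2.17 and 2.16 times in LPS, and 3.23 and 3.12 times in Met + LPS. Both Met + LPS ratios were above all 4 others. The ratio of Hspa9 to Hspd1 rose in the same libraries, from 1.47 and 1.43 in Untr and 1.76 and 1.67 in LPS to 3.09 and 3.11 in Met + LPS. With 2 libraries against 2, an exact permutation test cannot give a p under 0.333, so the ratios are descriptions. The exons of Hspd1 and Hspe1 overlap by 112 bases on opposite strands (4.24% and 7.6% of their exonic bases). Only 46.9% of the 31-base words of Hspd1 transcripts, 69.5% of those of Hspe1 and 90.3% of those of Hspa9 occurred in no other gene. The 12 pseudogenes named after these 3 genes had at most 0.816 TPM in any library.

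The soluble proteases of the matrix behaved unlike each other. Lonp1, which degrades oxidised and misfolded proteins and also Tfam, had 57.3 and 60.4 TPM in Untr, 39.0 and 37.2 in LPS, and 83.0 and 87.8 in Met + LPS. No groups overlapped, and Met + LPS was highest. Lonp1 rose 2.24-fold over LPS (log2 fold change 1.14 ± 0.05, limma adjusted p = 1.9e-05), the 98.4th percentile of all genes tested. Its difference between LPS and Untr, -0.61 as deposited (adjusted p = 3.4e-05), was -0.09 after rescaling (adjusted p = 0.13).

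Clpp (chr17:56990305-56996188), the proteolytic barrel, had 41.0 and 42.0 TPM in Untr, 24.0 and 26.3 in LPS, and 23.4 and 25.2 in Met + LPS. Its unfoldase partner Clpx had 40.4 and 35.7 TPM in Untr, 23.8 and 23.0 in LPS, and 22.7 and 22.6 in Met + LPS. For both genes the stimulated groups lay together below Untr. Met + LPS relative to LPS gave log2 fold changes of -0.05 for Clpp (95% interval -0.20 to 0.10, limma adjusted p = 0.57) and -0.05 for Clpx (95% interval -0.20 to 0.11, adjusted p = 0.58), and both upper bounds lie below the smallest change of the 5 genes that rose (0.37 for Hspe1). LPS against Untr was -0.70 for Clpp and -0.68 for Clpx as deposited (adjusted p = 5.2e-05 and 7.4e-05), and -0.18 and -0.16 after rescaling (adjusted p = 0.036 and 0.065).

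Barrel and unfoldase mRNA kept nearly the same ratio in every library. Clpp had 1.01 and 1.18 times the TPM of Clpx in Untr, 1.005 and 1.15 times in LPS, and 1.03 and 1.12 times in Met + LPS. In contrast, Lonp1 had 1.40 and 1.44 times the TPM of Clpp in Untr, 1.63 and 1.41 times in LPS, and 3.55 and 3.48 times in Met + LPS. The mRNA of the matrix protease systems thus shifted towards Lonp1 in the Met + LPS libraries only, among the 3 groups measured.

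**Figure D2:**
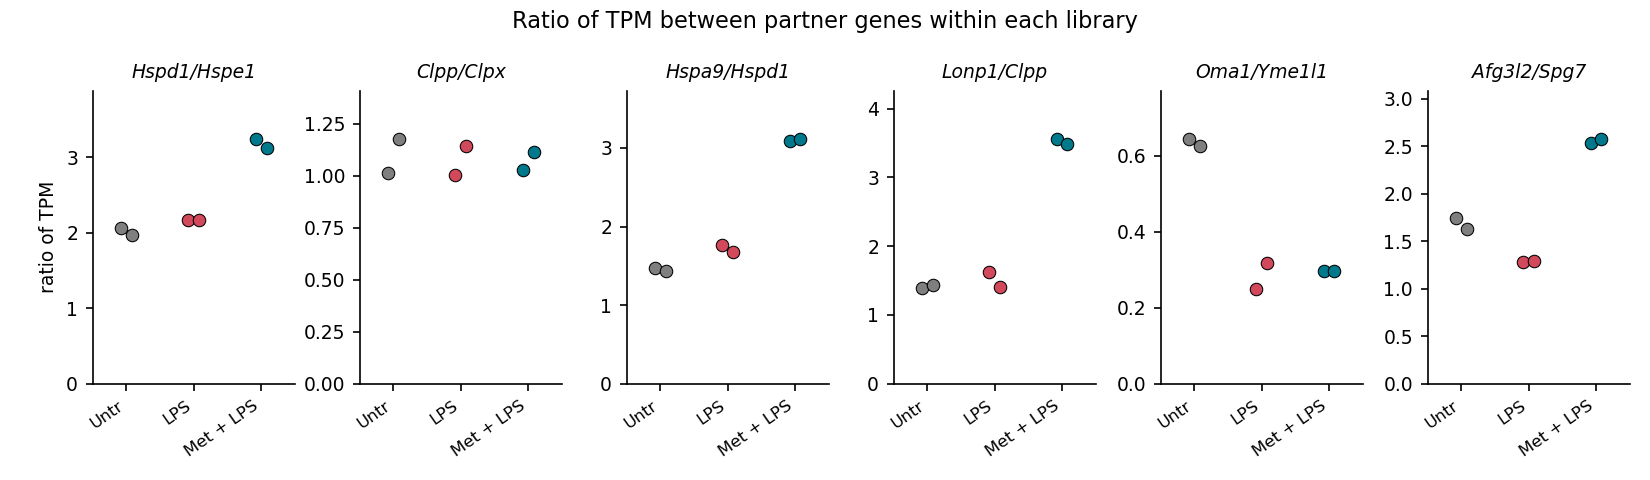
TPM of the first gene divided by TPM of the second within each library, for 6 pairs; points are libraries and each axis starts at 0. Hspd1/Hspe1, Hspa9/Hspd1, Lonp1/Clpp and Afg3l2/Spg7 are highest in both Met + LPS libraries, Clpp/Clpx lies between 1.005 and 1.18 throughout, and Oma1/Yme1l1 is highest in Untr.

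The inner membrane proteases also split. Afg3l2 (chr18:67404767-67449166), a subunit of the protease that faces the matrix, had 75.3 and 74.7 TPM in Untr, 39.6 and 41.1 in LPS, and 70.9 and 71.7 in Met + LPS. The LPS libraries were lowest. Met + LPS relative to Untr gave a log2 fold change of -0.07 as deposited (limma adjusted p = 0.11) and 0.47 after rescaling (adjusted p = 4.2e-05). Afg3l2 rose 1.77-fold over LPS (log2 fold change 0.81 ± 0.04, limma adjusted p = 2.1e-05). Its fall between Untr and LPS passed the test on both scales (log2 fold change -0.88, adjusted p = 1.9e-06, and -0.35 after rescaling, adjusted p = 1.9e-04).

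Spg7 encodes the partner subunit of Afg3l2 and did not share its rise. It had 43.1 and 45.8 TPM in Untr, 30.9 and 31.9 in LPS, and 28.0 and 27.9 in Met + LPS, and Met + LPS relative to LPS gave a log2 fold change of -0.16 (limma adjusted p = 0.027). The ratio of Afg3l2 to Spg7 was 1.75 and 1.63 in Untr, 1.28 and 1.29 in LPS, and 2.53 and 2.57 in Met + LPS. It was lowest in LPS and highest in Met + LPS, with no overlap between groups.

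Yme1l1 (chr2:23156369-23199260), which faces the intermembrane space, was the steadiest of the 10 in TPM, with 56.1 and 54.8 in Untr, 56.5 and 55.7 in LPS, and 58.2 and 59.2 in Met + LPS. Met + LPS relative to LPS gave a log2 fold change of 0.06 (95% interval -0.02 to 0.15, limma adjusted p = 0.20). LPS against Untr was 0.02 as deposited (adjusted p = 0.68), but 0.54 after rescaling (adjusted p = 1.8e-05), so that it held its share of the library while the median gene lost some.

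Oma1 (chr4:103313812-103371868) showed the largest LPS-associated difference of the 10. It had 36.1 and 34.3 TPM in Untr, 14.1 and 17.6 in LPS, and 17.2 and 17.6 in Met + LPS. The LPS libraries of Oma1 were the least alike of any replicate pair among the 10 genes, and they overlapped with Met + LPS. LPS against Untr passed the test on both scales (log2 fold change -1.11 ± 0.10, limma adjusted p = 5.0e-05, and -0.60 after rescaling, adjusted p = 0.0016). Met + LPS against LPS gave 0.13 (95% interval -0.10 to 0.37, adjusted p = 0.30). It was -0.02 without the first LPS library (adjusted p = 0.84) and 0.29 without the second (adjusted p = 0.019).

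Oma1 and Yme1l1 both process Opa1, and their ratio changed with LPS. Oma1 had 0.643 and 0.626 times the TPM of Yme1l1 in Untr, 0.249 and 0.317 times in LPS, and 0.296 and 0.297 times in Met + LPS. The LPS and Met + LPS ratios overlapped, and both groups were below Untr.

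Htra2 (chr6:83051266-83055273, minus strand) had 65.8 and 61.8 TPM in Untr, 42.5 and 42.9 in LPS, and 38.7 and 42.1 in Met + LPS. The stimulated libraries lay close together, below Untr. Met + LPS against LPS gave a log2 fold change of -0.08 (95% interval -0.21 to 0.05, limma adjusted p = 0.28), and LPS against Untr gave -0.57 as deposited (adjusted p = 7.8e-05) and -0.04 after rescaling (adjusted p = 0.51). Htra2 shares 753 exonic bases (25.6%) with Aup1 and 535 (18.2%) with Loxl3, both on the opposite strand. Whether reads were counted by strand is not given in the sources used here, so reads of these genes may not be told apart. Aup1 had 138 and 146 TPM in Untr, 118 and 117 in LPS and 120 and 123 in Met + LPS, and Loxl3 had at most 5.49 TPM in any library.

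Counted together, 5 of the 10 genes, which were chosen with earlier results of these data known, were higher and 0 were lower in Met + LPS relative to LPS. Of all genes tested, 14.5% were higher and 18% lower in that comparison. When a log2 change of at least 0.7 was required as well, 4 of the 10 were higher (Hspa9, Lonp1, Hspd1 and Afg3l2, against 4.19% of all genes) and 0 lower (4.09% of all genes). The median log2 fold change of the 10 genes was 0.25, and that of all genes tested was -0.03.

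In LPS against Untr, 8 of the 10 were lower and 0 higher in deposited TPM, where 60.1% of all genes tested were lower and 16.2% higher. The count of 8 is thus a count against a background in which most genes were lower. After rescaling, 2 were lower (Afg3l2 and Oma1, against 27.2% of all genes) and 3 were higher (Hspa9, Hspd1 and Yme1l1, against 31.6%). None of the 10 passed a required log2 change of 2 in either direction, which 3.72% of all genes passed as higher and 2.37% as lower. The median log2 fold change of the 10 was -0.59 in deposited TPM and -0.07 after rescaling.

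Met + LPS was also compared with Untr, using the same Met + LPS and Untr libraries as above. Hspa9 (log2 fold change 1.70, or 3.25-fold), Hspd1 (0.60, or 1.52-fold) and Lonp1 (0.53, or 1.45-fold) were higher, against 16.3% of all genes tested. Clpp (-0.75), Clpx (-0.72), Oma1 (-0.97) and Htra2 (-0.65) were lower, against 58.8% of all genes. The 7 adjusted p-values from limma lay between 2.0e-07 (Hspa9) and 9.2e-05 (Oma1). Hspe1 (-0.05, 95% interval -0.16 to 0.06), Afg3l2 (-0.07, -0.16 to 0.02) and Yme1l1 (0.08, -0.01 to 0.17) did not pass. After rescaling, Hspe1 (0.49), Afg3l2 (0.47) and Yme1l1 (0.62) were higher too, beside Hspa9 (2.25), Hspd1 (1.15) and Lonp1 (1.07), which made 6 of 10 against 34.4% of all genes. Only Oma1 (-0.44) then remained lower, against 29.2% of all genes, and Clpp (-0.21), Clpx (-0.19) and Htra2 (-0.11) no longer passed the test.

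**Figure D3:**
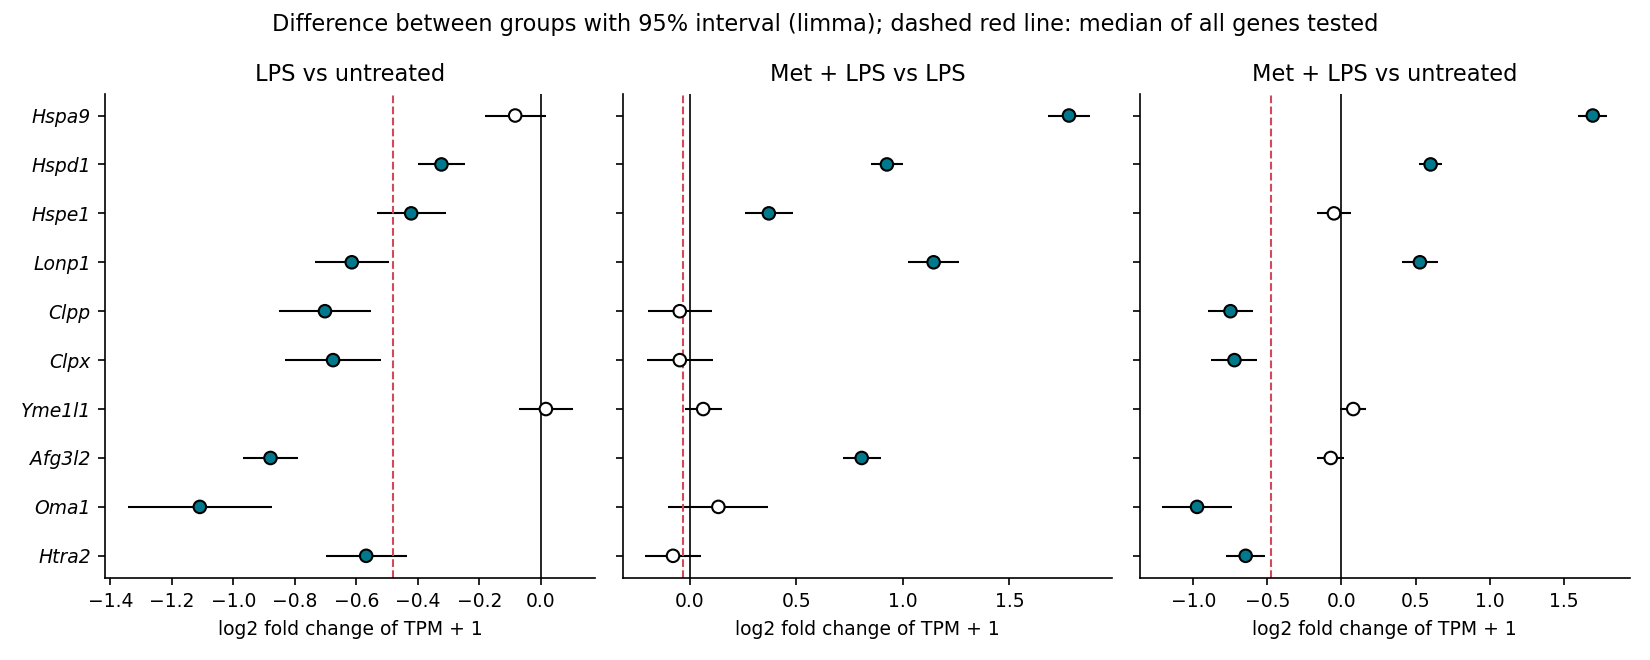
Log2 fold change of TPM + 1 for each gene in the 3 comparisons, in deposited TPM, with 95% intervals from limma; filled points have an adjusted p under 0.01 and the dashed line is the median of all genes tested. In Met + LPS vs LPS 5 genes are filled, from 0.37 to 1.78. The other 5 are open, between -0.08 and 0.13, on both sides of the dashed line. In the other comparisons the dashed line itself stands at -0.48.

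As a share of all mRNA, the 10 genes together made up 887 and 879 TPM in Untr, 692 and 678 in LPS, and 1465 and 1522 in Met + LPS. Most of the added TPM came from Hspa9 and Hspd1. Hspa9 alone was 28.9% and 28.6% of the sum in Untr, 35.7% and 34.2% in LPS, and 55.2% and 55.2% in Met + LPS. The 3 chaperones summed to 515 and 515 TPM in Untr, 452 and 435 in LPS, and 1151 and 1196 in Met + LPS.

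The 7 proteases moved much less. They summed to 372 and 364 TPM in Untr, 240 and 244 in LPS, and 314 and 326 in Met + LPS. The sum was lowest in LPS on both scales. It was highest in Untr in deposited TPM, but highest in Met + LPS after rescaling. Without Lonp1 and Afg3l2 the proteases summed to 239 and 229 TPM in Untr, 161 and 166 in LPS, and 160 and 167 in Met + LPS.

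**Figure D4:**
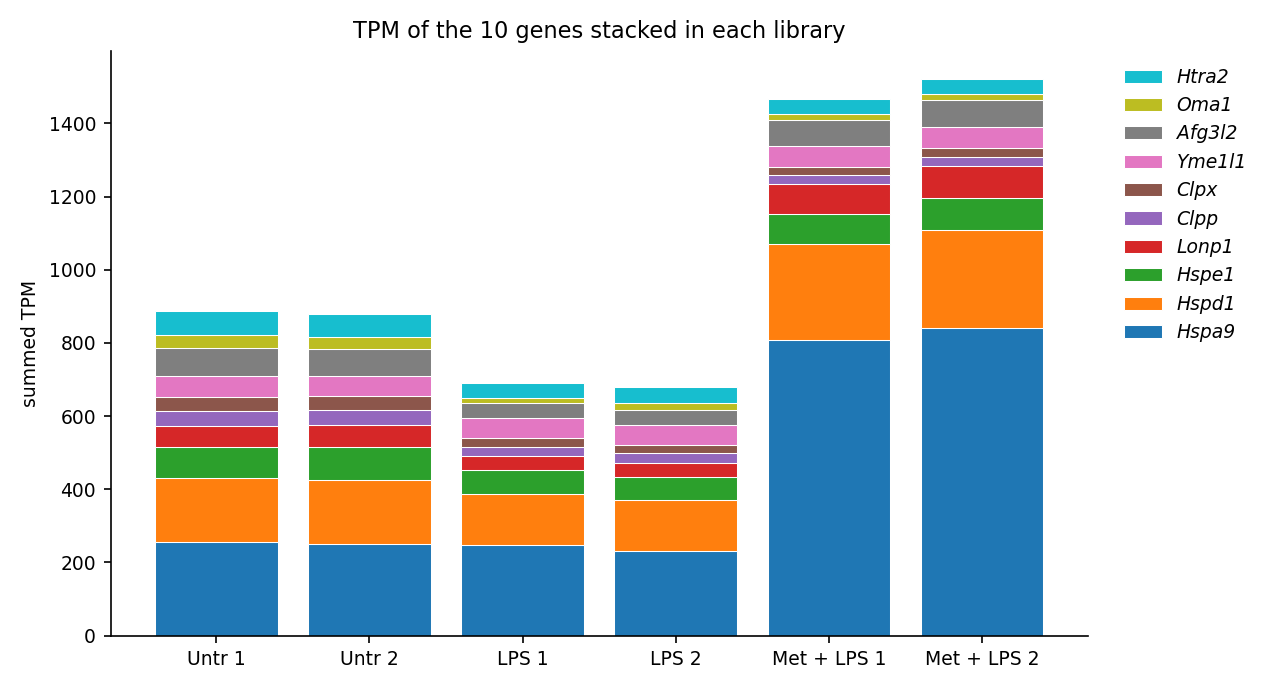
TPM of the 10 genes stacked in each of the 6 libraries, on an axis that starts at 0. The Met + LPS columns reach 1465 and 1522 TPM, and the Hspa9 segment takes 55.2% of each.

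The order of the levels shifted with treatment. In Untr it ran, by mean TPM, Hspa9 (254), Hspd1 (175), Hspe1 (86.7), Afg3l2 (75.0), Htra2 (63.8), Lonp1 (58.9), Yme1l1 (55.5), Clpp (41.5), Clpx (38.1) and Oma1 (35.2). The libraries of Clpx and Oma1 overlapped there, and the other neighbours did not. In LPS Yme1l1 (56.1) moved up to follow Hspe1 (64.5), and Afg3l2 (40.3) fell behind Htra2 (42.7) to a place just above Lonp1 (38.1). In Met + LPS Lonp1 (85.4) followed Hspd1 (266), level with Hspe1 (83.7), whose libraries it overlapped, while Clpp (24.3), Clpx (22.6) and Oma1 (17.4) made up the end.

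Other genes of mitochondrial protein quality control were examined as lists. Their counts against Untr stand beside the shares of all genes given above, of which 60.1% were lower in LPS and 58.8% lower in Met + LPS in deposited TPM. Counts of Met + LPS against LPS stand beside 14.5% of all genes higher and 18% lower. A count close to these shares says little about its list. Of 11 further mitochondrial chaperones and cochaperones, 3 were higher and 2 lower in Met + LPS than in LPS (median log2 fold change 0.04). The 3 that rose were Dnaja3, a J-domain partner of Hspa9 (25.96 and 25.4 TPM in LPS, 44.0 and 45.8 in Met + LPS, log2 fold change 0.78, limma adjusted p = 3.7e-05), Grpel2, a nucleotide exchange factor of Hspa9 (0.57, adjusted p = 0.0030), and Hscb, a J-domain protein of iron-sulfur cluster assembly (0.45, adjusted p = 0.0063). Dnlz, which keeps Hspa9 soluble, fell by 0.31 on the log2 scale (adjusted p = 0.0037), and so did Trap1, the Hsp90-type chaperone, by 0.26 (adjusted p = 0.0057). All 11 were lower in LPS than in Untr in deposited TPM (median -0.70), and 6 were lower and 1 higher after rescaling. Against Untr, 10 were lower and 0 higher in Met + LPS, and 1 lower and 2 higher after rescaling.

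Of 13 further mitochondrial proteases and processing peptidases, 0 were higher and 1 lower in Met + LPS than in LPS (median 0.10), and 1 was higher and 1 lower after rescaling. The gene that was lower in deposited TPM was Pmpca, a subunit of the peptidase that removes import signals (61.5 and 57.1 TPM in LPS, 48.1 and 48.0 in Met + LPS, log2 fold change -0.30, limma adjusted p = 0.0041). Relative to Untr, 8 were lower and 0 higher in LPS, and 3 lower and 4 higher after rescaling. The largest fall was that of Atp23, a metallopeptidase of the intermembrane space, from 5.15 and 5.40 TPM in Untr to 0.842 and 0.683 in LPS (log2 fold change -1.83, adjusted p = 1.4e-05). Xpnpep3 (-1.13), Afg1l (-0.92) and Lactb (-0.76) also fell in deposited TPM. After rescaling these were -0.67, -0.43 and -0.23, and Afg1l no longer passed (limma adjusted p = 0.013). In Met + LPS against Untr 9 were lower and 1 higher, and 2 lower and 4 higher after rescaling.

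The import machinery, which delivers the substrates of Hspa9, had 25 of 26 genes tested. Relative to LPS, 4 rose and 2 fell in Met + LPS (median 0.10), and the share that rose was close to that of all genes. Timm44, which tethers Hspa9 to the import channel, had 31.8 and 32.5 TPM in LPS and 44.9 and 41.8 in Met + LPS (log2 fold change 0.42, limma adjusted p = 8.2e-04). Timm9, a chaperone of the intermembrane space, rose by 0.60 (adjusted p = 0.0055) from a low level, and Chchd4, the oxidoreductase of that compartment, by 0.44 (adjusted p = 0.0025). Timm22, the channel for carrier proteins, fell by 0.42 on the log2 scale (adjusted p = 0.0012). With LPS alone 18 were lower and 1 higher than in Untr, the lower ones including Gfer (-1.07), Timm29 (-1.02), Timm9 (-0.98) and Timm21 (-0.91). After rescaling 4 were lower and 6 higher, and Gfer (-0.56, limma adjusted p = 0.0105) no longer passed. In Met + LPS against Untr 13 were lower and 3 higher (4 lower and 10 higher after rescaling).

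Of 18 substrates and partners, 2 were higher and 3 lower in Met + LPS than in LPS (median 0.03), close to the shares of all genes. Opa1, the fusion factor cut by Oma1 and Yme1l1, had 43.0 and 42.2 TPM in Untr, 31.2 and 30.2 in LPS, and 38.4 and 35.5 in Met + LPS. Its log2 fold change from LPS to Met + LPS was 0.26 (limma adjusted p = 0.0061). Phb2, a prohibitin that binds the Afg3l2 protease, rose by 0.22 (adjusted p = 0.0072). In deposited TPM both Met + LPS libraries of either gene stayed below Untr. Birc3 and Birc2, inhibitors of apoptosis of the kind that Htra2 can bind, fell by 0.67 (adjusted p = 5.5e-05) and 0.37 (adjusted p = 0.0013). Both had risen with LPS, Birc3 from 29.9 and 29.2 TPM in Untr to 162 and 159 in LPS (log2 fold change 2.40, adjusted p = 3.3e-08). Tfam, the DNA-packaging protein that Lonp1 degrades, had 12.4 and 10.8 TPM in LPS and 12.2 and 12.02 in Met + LPS (log2 fold change 0.06, adjusted p = 0.55). In LPS against Untr 3 were higher and 10 lower (6 and 1 after rescaling), and in Met + LPS against Untr 3 and 7 (10 and 1 after rescaling).

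Among 10 regulators linked to the mitochondrial stress response, 5 were higher and 1 lower in Met + LPS than in LPS, with a median log2 fold change of 0.50. Ddit3 (CHOP), a stress transcription factor, had 46.9 and 45.0 TPM in Untr, 13.2 and 13.4 in LPS, and 49.96 and 51.8 in Met + LPS (log2 fold change 1.86 over LPS, limma adjusted p = 4.4e-06). Atf5, a transcription factor tied to the mitochondrial unfolded protein response, had 68.2 and 76.3 TPM in Untr, 73.2 and 68.5 in LPS, and 217 and 227 in Met + LPS (1.64, adjusted p = 1.4e-05). In TPM, Atf5 was level in Untr and LPS and high in Met + LPS, as Hspa9 was, whereas Ddit3, like Afg3l2, was low in LPS alone.

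The amino acid sensing kinase gene Eif2ak4 (GCN2, 0.94, limma adjusted p = 1.6e-04), the transcription factor Atf4 (0.75, adjusted p = 1.5e-05) and Dele1 (0.68, adjusted p = 1.1e-04), whose product Oma1 cuts, rose as well. Eif2ak4 had 24.0 and 24.4 TPM in Untr, 9.30 and 7.99 in LPS, and 16.9 and 18.0 in Met + LPS. Dele1 had 36.9 and 39.5 TPM in Untr, 12.8 and 12.8 in LPS, and 21.1 and 21.2 in Met + LPS, whereas Oma1 itself overlapped between LPS and Met + LPS. Eif2ak2 (PKR) was the gene that fell, by 0.63 on the log2 scale (adjusted p = 1.7e-04), after a rise from 46.2 and 47.4 TPM in Untr to 150 and 165 in LPS. Hsf1, the heat shock factor, had 11.6 and 11.4 TPM in LPS and 13.9 and 15.1 in Met + LPS (0.31, adjusted p = 0.016) and was not called. In LPS against Untr 2 regulators were higher and 6 lower, the largest of these differences being that of Eif2ak3 (PERK), from 21.3 and 22.6 TPM to 3.42 and 3.39 (log2 fold change -2.38, adjusted p = 5.4e-07), and after rescaling 4 were higher and 4 lower. Against Untr, Met + LPS had 4 higher and 4 lower (6 and 3 after rescaling).

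Chaperones of other compartments gave other counts. Of 14 chaperones of the endoplasmic reticulum, 1 rose and 11 fell from LPS to Met + LPS (median -0.45). They included Hspa5, the Hsp70-type relative of Hspa9 in that organelle, at 1021 and 1011 TPM in LPS and 838 and 823 in Met + LPS, and Pdia4, Sdf2l1, Calr and Dnajc3 fell by 0.96, 0.93, 0.68 and 0.62 (limma adjusted p = 1.9e-05 to 9.9e-05). Hspa9 rose to 809 and 840 TPM, and in Met + LPS these Hsp70-type chaperones of the mitochondrion and the reticulum thus stood at nearly the same TPM. In LPS against Untr 1 was higher and 9 lower (11 and 0 after rescaling), and in Met + LPS against Untr 1 and 11 (4 and 5 after rescaling).

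Of 18 cytosolic chaperones tested, 3 were higher and 2 lower in Met + LPS than in LPS (median 0.10), and 4 and 2 after rescaling. In deposited TPM the share that was higher was close to that of all genes. The stress-inducible Hspa1b had 1.64 and 2.04 TPM in Untr, 37.9 and 40.4 in LPS, and 18.2 and 18.2 in Met + LPS, so it rose with LPS (log2 fold change 3.82, limma adjusted p = 8.6e-08) and was lower with metformin (-1.06, adjusted p = 1.2e-04). Its course was thus opposite to that of Hspa9 between LPS and Met + LPS. Dnaja1, a cytosolic J-domain protein, also fell (-0.50, adjusted p = 2.8e-04), while Cct4 and Cct2, subunits of the cytosolic chaperonin, rose by 0.40 and 0.24 (adjusted p = 2.2e-04 and 0.0018). Against Untr, 8 were higher and 3 lower in LPS (15 and 0 after rescaling), and 8 and 3 in Met + LPS (16 and 0 after rescaling).

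Of the 13 mRNAs encoded by mitochondrial DNA, 6 were listed under 1 TPM in every library, so only 7 were tested. Of these, 1 was higher (mt-Co1, 0.33, limma adjusted p = 0.0017) and 5 were lower in Met + LPS relative to LPS (median -0.23), by 0.27 on the log2 scale for mt-Nd6, and after rescaling 1 was higher and 3 were lower. The sum over the 13 was 41519 to 43055 TPM in Untr, 37975 to 40428 in LPS and 40062 to 40654 in Met + LPS. In LPS against Untr 0 of 7 passed the test as deposited and 7 were higher after rescaling, and in Met + LPS against Untr 1 was higher and 5 lower as deposited and 5 higher and 0 lower after rescaling.

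**Figure D5:**
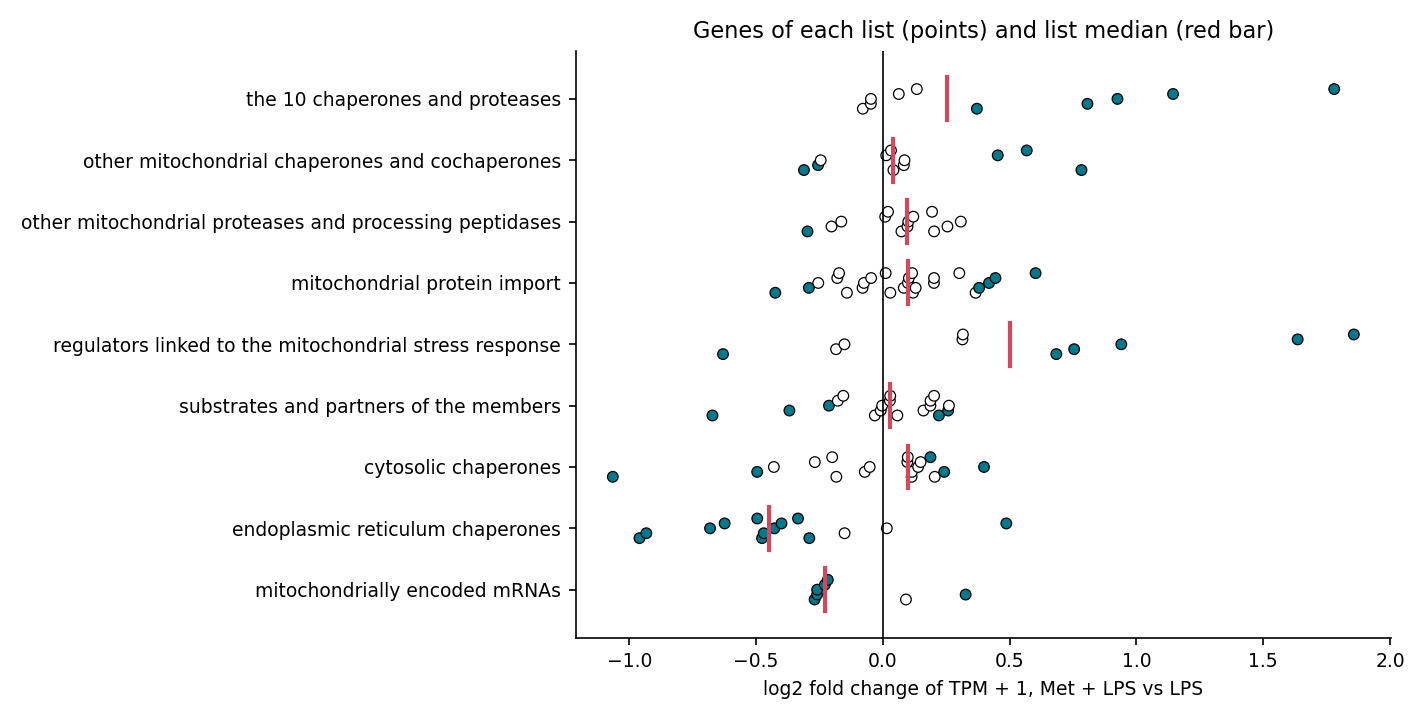
Log2 fold change of TPM + 1 in Met + LPS vs LPS for every tested gene of each list; filled points have an adjusted p under 0.01 and the red bar is the list's median. The 10 chaperones and proteases form a group near 0 and a group from 0.37 to 1.78, the regulators reach 1.86, and 11 of 14 chaperones of the endoplasmic reticulum are filled to the left of 0.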

How the data were processed

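Poly-A libraries (Illumina TruSeq RNA kit) were sequenced from 6 BMDM samples. Per the labels and the study's methods, the authors aligned reads to GRCm38 with STAR 2.6.1d and counted them with featureCounts (Subread 1.6.3). The deposited values are TPM per gene. How TPM were computed from counts is not given in the sources used here. Genes reaching 1 TPM in 2 or more libraries were tested on log2(TPM + 1) with limma 3.58.1 in R 4.3.3 (lmFit, eBayes with trend, all 6 libraries, two-sided, Benjamini-Hochberg adjustment). Intervals are at 95% and errors are SE. Scaling TPM by exon length gave whole reads for 96.1 to 96.3% of values (tolerance 0.02), and voom was run on those reads as an alternative. Named genes were the 10, those in partner ratios, and per list those past adjusted p under 0.01 with the 4 largest changes in a comparison. Tfam, Hsf1, Trap1, Aup1 and Loxl3 lie outside that rule and were chosen with values seen. The 10 genes and all lists were chosen with earlier results of these data known. Promoters came from RefSeq (GRCm38.p6), exons and transcripts from GENCODE (GRCm38). Replicates differed beyond counting noise in every group. One list of markers of another cell type is not reported here.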

Additional observations from a re-analysis of the deposited data

How the results depend on the processing

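In Met + LPS against LPS, the 5 genes that rose kept their direction and their call under all 14 settings tried per gene (70 of 70 values, highest adjusted p 0.0088), and the other 5 passed in 0 of 70. The settings were a minimum of 5 TPM or no minimum, a pseudocount of 0.1, median-ratio rescaling, the compared groups alone, a replicate block, eBayes without trend, voom, and each library left out, with an adjusted p of 0.05 and fold cut-offs as further settings for the counts. The minimum, the compared groups alone, the block, the trend and leaving out an Untr library left the fold change of that comparison unaltered. Direction was therefore fixed in advance under those settings. Leaving out a library gave -0.11 to 0.0185 for Clpp (above 0 without the second LPS or the first Met + LPS library) and -0.0181 to 0.29 for Oma1 in that comparison. Rescaling moved both comparisons with Untr. For LPS against Untr it gave 3 genes higher and 2 lower, and turned Hspa9 to 0.45, Hspd1 to 0.21, Hspe1 to 0.11 and the log2 ratio of summed TPM to 0.17. For Met + LPS against Untr it gave 6 higher and 1 lower, and turned Hspe1 to 0.49 and Afg3l2 to 0.47. With the fold cut-off 0 genes were lower in LPS. Which scale reflects mRNA per cell was not tested. With a replicate block, 5 genes rose in Met + LPS against LPS and 8 fell in LPS against Untr, as without it. Same-numbered libraries did not deviate together (correlations -0.004, 0.006 and 0.028), so the numbers were not taken as pairs. With 2 libraries per group the interval for Oma1 (230 reads in the first LPS library) is the widest.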
